A study of Mus musculus with 9 samples.

Results

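The genes described are 8 that encode dectin-1, the dectin-2 family of lectin receptors, and the signalling chain through which these receptors act. They were chosen by symbol, as Clec7a, Clec4n, Clec4d, Clec4e, Syk, Card9, Bcl10 and Malt1, and 8 of 8 had a row among the 14905 genes of the deposited table. The choice used no threshold on values, but it was made with results of these libraries known, among them the lower level of Clec7a; the fit of these genes is therefore a description of this set of libraries, and their number past the test supports nothing further.

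RNA was sequenced from macrophages of visceral adipose tissue, sorted as cells carrying both F4/80 and CD11b, which Adgre1 and Itgam encode. The groups were 5 libraries from mice labelled Nucb2-/- (KO), which lack a working gene for nucleobindin-2 by their label, and 4 libraries from wild-type mice (WT), both on the C57BL/6 background. The sample labels do not give the diet, age or sex of the mice, nor which part of Nucb2 was disrupted. The name of the deposited table, which holds both groups, carries the letters HFD, a usual abbreviation of high-fat diet that no label spells out. They number the libraries as replicates without saying that each came from its own mouse, and the p-values then speak of library-to-library spread, part of which may be technical.

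C-type lectin receptors let macrophages recognise sugars and glycolipids on fungi, mycobacteria and damaged cells. Dectin-1 binds beta-glucan and carries its own short signalling motif, whereas the dectin-2 family signals through the paired adaptor chain encoded by Fcer1g. Both routes recruit the kinase Syk, and Card9 then assembles with Bcl10 and the protease Malt1 to switch on NF-kB and cytokine genes. In obese mouse fat the dectin-2 family member Mincle, encoded by Clec4e, is known from macrophages around dying adipocytes.

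The values are normalized read counts: reads per gene divided by 1 factor per library, never under 1. Depth here means the reads counted in the 14905 genes of the deposited table, so reads outside those genes are left out. The smallest steps between values put it at 74937719 to 85200098 reads in 6 deeper libraries. Those were KO replicates 1 to 4 with WT replicates 1 and 2. KO replicate 5 with WT replicates 3 and 4 made up the shallower class, at 51148955 to 55004978 reads. Each mean is given ± SD over n = 5 KO and n = 4 WT libraries. For Nucb2 the KO libraries averaged 1500 ± 219 normalized counts and the WT libraries 4313 ± 791, with no overlap between the groups and some transcript still detected in KO. Both sort antigens were among the abundant transcripts. Adgre1 averaged 91199 ± 5642 in KO and 106110 ± 8809 in WT, and Itgam 23739 ± 1945 in KO and 20943 ± 1097 in WT. Differences between KO and WT are given on the scale of log2 of the normalized count plus 1, as KO minus WT, and were tested with limma over all 14905 genes at a Benjamini-Hochberg adjusted p of 0.05. Of all genes 46 passed, which is 0.309%.

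The receptor genes lie on chromosome 6 in a pair of clusters (mm10). Clec4n (123229843 to 123247021, plus strand), Clec4d (123262111 to 123275265, plus strand) and Clec4e (123281789 to 123289870, minus strand) are neighbours, and Clec7a lies apart from them at 129461591 to 129472779 on the minus strand. GENCODE M21 types Clec7a as a polymorphic pseudogene, although mouse dectin-1 is a well-studied protein, and the other 7 genes as protein coding. Among the 8 genes Clec7a and Clec4e were the most abundant receptors per kilobase. They also stood apart in the test, which Clec7a passed and Clec4e did not. Their promoter windows, from 250 bases before the start to 50 after it, are therefore shown. They are RefSeq sequences on GRCm38.p6, 5′ to 3′ on the gene's strand, chr6:129472730-129473029 for Clec7a, the first of its 2 listed windows, and chr6:123289822-123290121 for Clec4e. Of the 8 genes, 6 had an entry in that table. Capitals mark GAGGAA, the core of many sites of the myeloid factor PU.1, and TATAAA, the TATA box, each on either strand.
Clec7a: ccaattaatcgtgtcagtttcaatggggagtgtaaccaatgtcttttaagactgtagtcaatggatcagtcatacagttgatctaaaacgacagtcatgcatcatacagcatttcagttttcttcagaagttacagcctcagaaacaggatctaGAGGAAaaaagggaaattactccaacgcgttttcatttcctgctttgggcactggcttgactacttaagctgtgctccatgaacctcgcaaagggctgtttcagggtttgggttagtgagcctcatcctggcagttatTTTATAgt
Clec4e: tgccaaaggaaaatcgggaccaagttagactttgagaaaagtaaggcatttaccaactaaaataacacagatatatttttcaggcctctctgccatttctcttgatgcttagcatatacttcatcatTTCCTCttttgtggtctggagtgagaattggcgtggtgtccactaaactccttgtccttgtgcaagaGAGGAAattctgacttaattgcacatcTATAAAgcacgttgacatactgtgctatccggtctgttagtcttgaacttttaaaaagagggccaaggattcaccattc
The Clec7a window held 1 GAGGAA, starting 96 bases before the start, and 1 TATAAA match on the opposite strand (TTTATA as printed), 42 bases after it. The Clec4e window held 2 GAGGAA matches, starting 123 (opposite strand, TTCCTC as printed) and 56 bases before the start, and 1 TATAAA, 29 bases before it. None of these matches overlapped another. Among 32851 promoter windows of the same length, 28.3% held GAGGAA and 13.6% held TATAAA. The letters TGACTCA, the site of AP-1, were in 5.2% of windows and in neither of these.

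Per kilobase of annotated exon, dectin-1 was by far the most abundant of these transcripts. Clec7a reached 15360 ± 1471 normalized counts per kb in KO and 21980 ± 2656 in WT, and its mean over the 9 libraries was 4.29 times that of Clec4e, the next in order. Clec4e had 4412 ± 1021 per kb in KO and 4072 ± 606 in WT. Clec4d (2420 ± 500 in KO, 2810 ± 156 in WT) and Clec4n (2151 ± 393 in KO, 2634 ± 1061 in WT) followed, with ranges that overlapped each other.

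Among the signalling genes, Bcl10 had 1805 ± 125 normalized counts per kb in KO and 1678 ± 143 in WT, and Syk 1065 ± 88.2 in KO and 1258 ± 72.6 in WT. Bcl10 overlapped Clec4n but stood above Syk in every library. Card9 (150 ± 42.3 in KO, 163 ± 83.5 in WT) and Malt1 (126 ± 24.3 in KO, 155 ± 17.1 in WT) were lowest and overlapped each other, and Syk averaged 7.37 times Card9 over the 9 libraries. The order in the middle depends on the length used: with the longest annotated transcript in place of all exons, Bcl10 ranked 3 rather than 5 of 8, and Malt1, whose exon length is then 6.4 rather than 18 kb, ranked 7 and Card9 8.

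**Figure D1:**
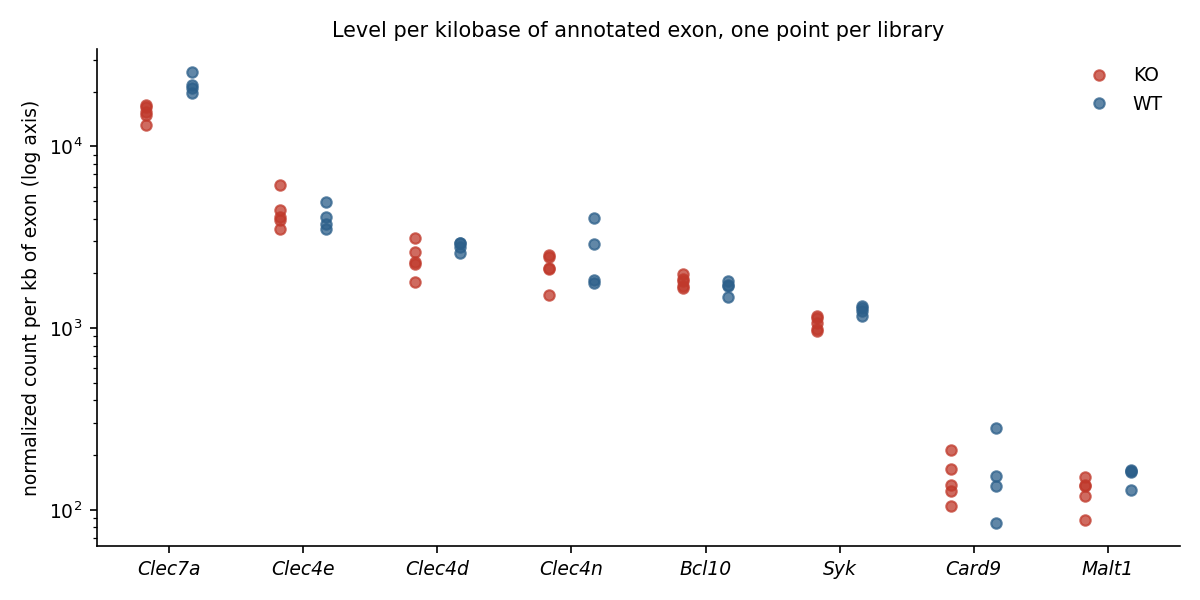
Normalized read count per kilobase of annotated exon (log axis) for the 8 genes in order of their mean, with 1 point per library, KO left of WT. Clec7a lies above every other gene in every library, at 13170 to 16840 in KO and 19520 to 25690 in WT, and Card9 and Malt1 share the lowest level.

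Every KO library had less Clec7a than any WT library. The normalized counts were 44422, 40489, 39221, 43666 and 34742 in KO replicates 1 to 5, against 51483, 54967, 67772 and 57660 in WT replicates 1 to 4. The lowest value was that of KO replicate 5 and the highest that of WT replicate 3, both shallower libraries. The KO mean of 40508 ± 3879 was 69.9% of the WT mean of 57970 ± 7007. On the log2 scale Clec7a fell by 0.52 (SE 0.09, 95% interval -0.71 to -0.32; limma adjusted p = 0.022). It was the 1 of the 8 genes that passed, beside 0.309% of all genes, or 0.127% of all genes in the downward direction, and the 1 of the 8 whose ranges did not overlap with KO below WT, as in 1.60% of all genes. Ranges apart in either direction were found for 3.15% of all genes, and with KO above WT for 1.55%. In these bulk libraries fewer dectin-1-bearing cells and less Clec7a RNA per cell cannot be told apart.

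The direction held in each depth class, and the size differed between them. In the deeper libraries Clec7a ranged from 39221 to 44422 in KO and from 51483 to 54967 in WT, a difference of -0.34. In the shallower ones it was 34742 in KO, against 57660 and 67772 in WT, a difference of -0.85 that rests on 1 KO library. Whether these differences differ was not tested. With depth class as a term the difference was -0.51 (limma adjusted p = 0.055), and in the 6 deeper libraries alone the adjusted p was 0.34.

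The call for Clec7a depended on every library. The limma adjusted p was 0.10, 0.14, 0.20, 0.10 and 0.16 when KO replicates 1 to 5 were left out in turn. When WT replicates 1 to 4 were left out in turn it was 0.055, 0.16, 0.11 and 0.18. The difference itself lay between -0.57 and -0.44 in these fits and below 0 in each of the 21 alternatives.

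**Figure D2:**
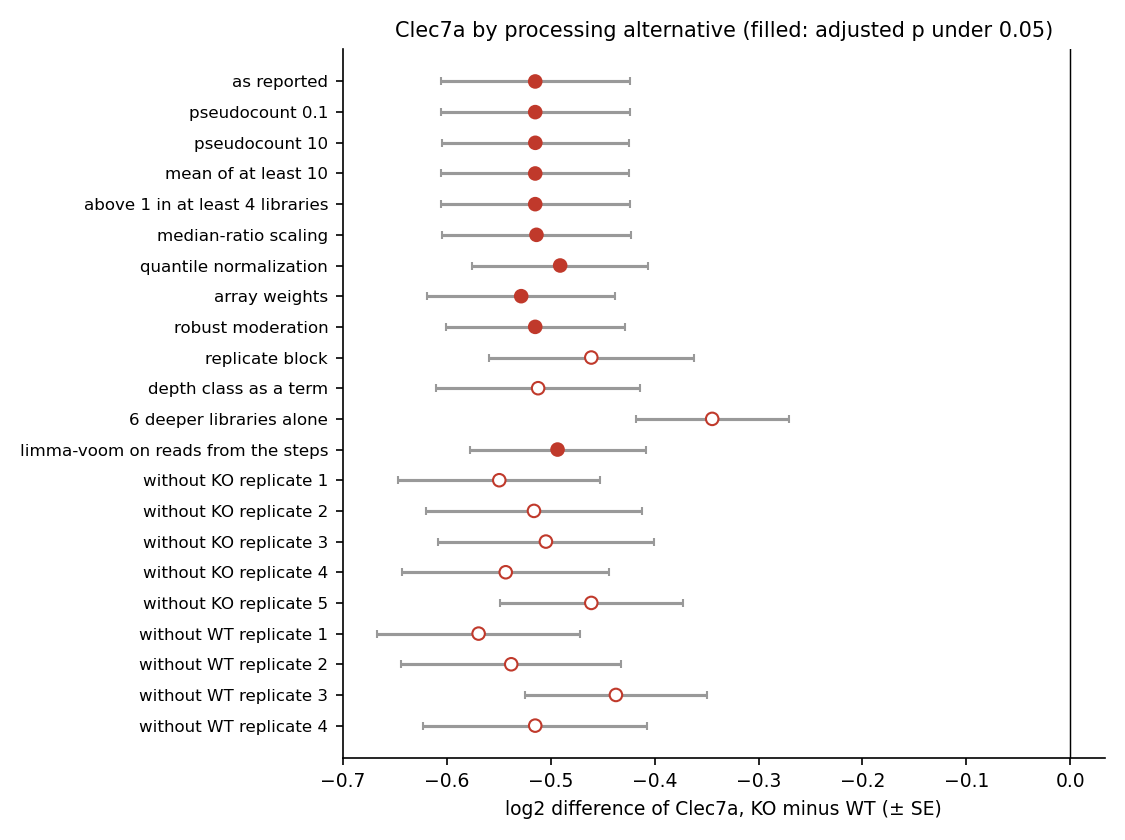
Log2 difference of Clec7a, KO minus WT, with its SE, as reported and under 21 alternatives; filled points have a limma adjusted p under 0.05. Every estimate lies below 0, between -0.57 and -0.34, and the open points include all 9 fits that left out 1 library.

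Set against the antigens used for the sort, Clec7a was lower in KO by different amounts. Its ratio to Itgam was 1.71 ± 0.123 in KO and 2.78 ± 0.433 in WT, with KO libraries between 1.59 and 1.89 and WT libraries between 2.40 and 3.40. The ratio to Adgre1 was 0.445 ± 0.0483 in KO and 0.549 ± 0.0766 in WT, and there the ranges overlapped, at 0.390 to 0.499 in KO and 0.485 to 0.654 in WT. Adgre1 differed by -0.22 and Itgam by 0.18 on the log2 scale, and neither passed (limma adjusted p = 0.28 and 0.52).

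Dectin-1 is carried by macrophages, monocytes, neutrophils and dendritic cells, and markers of each were summed in every library. The 14 macrophage markers summed to 1592860 to 1761030 normalized counts in KO and 1671020 to 1859670 in WT, with 1 past the test, Aif1, which fell. Lyz2 alone averaged 809550 in KO and 825450 in WT, so it makes up much of these sums. Of the 14 genes 10 lay below 0 and 7 had an unadjusted p under 0.05, 6 of them lower in KO, beside 9.14% of all genes. In C1qa (log2 difference -0.50), C1qc (-0.39) and Fcgr1 (-0.50), as in Aif1 (-0.68), every KO library lay below every WT library (limma adjusted p = 0.067, 0.095, 0.12 and 0.030). The 9 monocyte markers summed to 115240 to 160207 in KO and 111976 to 122587 in WT, and the 8 measured of 10 neutrophil markers to 2745 to 4719 in KO and 2263 to 3271 in WT, with 0 past the test in either list. Of the monocyte markers 7 lay above 0, and of the neutrophil markers 7. An unadjusted p under 0.05 in limma was found for 2 monocyte markers, Chil3 and Treml4, and for 1 neutrophil marker, Mmp9, all higher in KO. Ccr2 (58951 in KO, 53128 in WT) and F13a1 (44223 in KO, 38959 in WT) made up most of the monocyte sum. Csf3r made up most of the neutrophil sum (2646 ± 585 in KO, 2032 ± 298 in WT). In Mmp9 every KO library lay above every WT library (433 ± 118 in KO, 112 ± 14.5 in WT, limma adjusted p = 0.089). The 10 dendritic cell markers, which include Cd209a as their 1 call, summed to 35522 to 39486 in KO and 35438 to 41069 in WT. Sirpa made up most of that sum (22365 ± 2458 in KO, 26352 ± 1704 in WT). Of the 10 markers 6 lay above 0, and 4 had an unadjusted p under 0.05 in limma. Sirpa was lower in KO, and 3 were higher: Cd209a, Dpp4 (2421 ± 1064 in KO, 1290 ± 250 in WT) and Flt3 (406 ± 129 in KO, 189 ± 142 in WT). The 45S ribosomal RNA precursor Rn45s, a sign of how much ribosomal RNA a library kept, fell to 1303500 ± 90282 in KO, against 2079000 ± 269120 in WT, with no overlap (a log2 difference of -0.67, limma adjusted p = 0.0020). The part of these markers and of ribosomal RNA in the level of Clec7a was not tested.

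The dectin-2 family genes did not pass the test in either direction. Clec4n encodes dectin-2 itself, a receptor for mannose-rich glycans. It had 3050.3, 3498, 2985, 2172 and 3571 normalized counts in KO replicates 1 to 5, against 2524, 2603, 5715 and 4121 in WT replicates 1 to 4. The WT libraries split by depth: replicates 3 and 4, the shallower ones, lay above every KO library, and replicates 1 and 2 lay within the KO range. KO replicate 5, also shallower, was the highest of its group. The difference was -0.23 over all libraries (95% interval -0.71 to 0.25; limma adjusted p = 0.81), 0.17 in the deeper libraries and -0.44 in the shallower ones, so that no direction can be given for Clec4n.

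Clec4d encodes MCL, a glycolipid receptor that pairs with Mincle. Its normalized count was 4168, 5027, 3693, 3609 and 2854 in KO replicates 1 to 5, against 4672, 4460.1, 4155 and 4688 in WT replicates 1 to 4. The KO libraries were more spread than the WT libraries, with a coefficient of variation of 20.7% in KO and 5.54% in WT, and KO replicate 2 exceeded every WT library. The difference was -0.24 (95% interval -0.55 to 0.07; limma adjusted p = 0.66), with -0.16 in the deeper libraries and -0.63 in the shallower ones.

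Clec4e encodes Mincle, which senses mycobacterial cord factor and products of dying cells. It had 30475, 19476, 22029, 17380 and 20169 normalized counts in KO replicates 1 to 5, against 18655, 20341, 24373 and 17496 in WT replicates 1 to 4. Apart from KO replicate 1, the groups covered nearly the same range. The difference was 0.10 (95% interval -0.20 to 0.39; limma adjusted p = 0.85), and without KO replicate 1 it was -0.03. The interval leaves room for a change of up to 0.39 upward or 0.20 downward on the log2 scale.

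**Figure D3:**
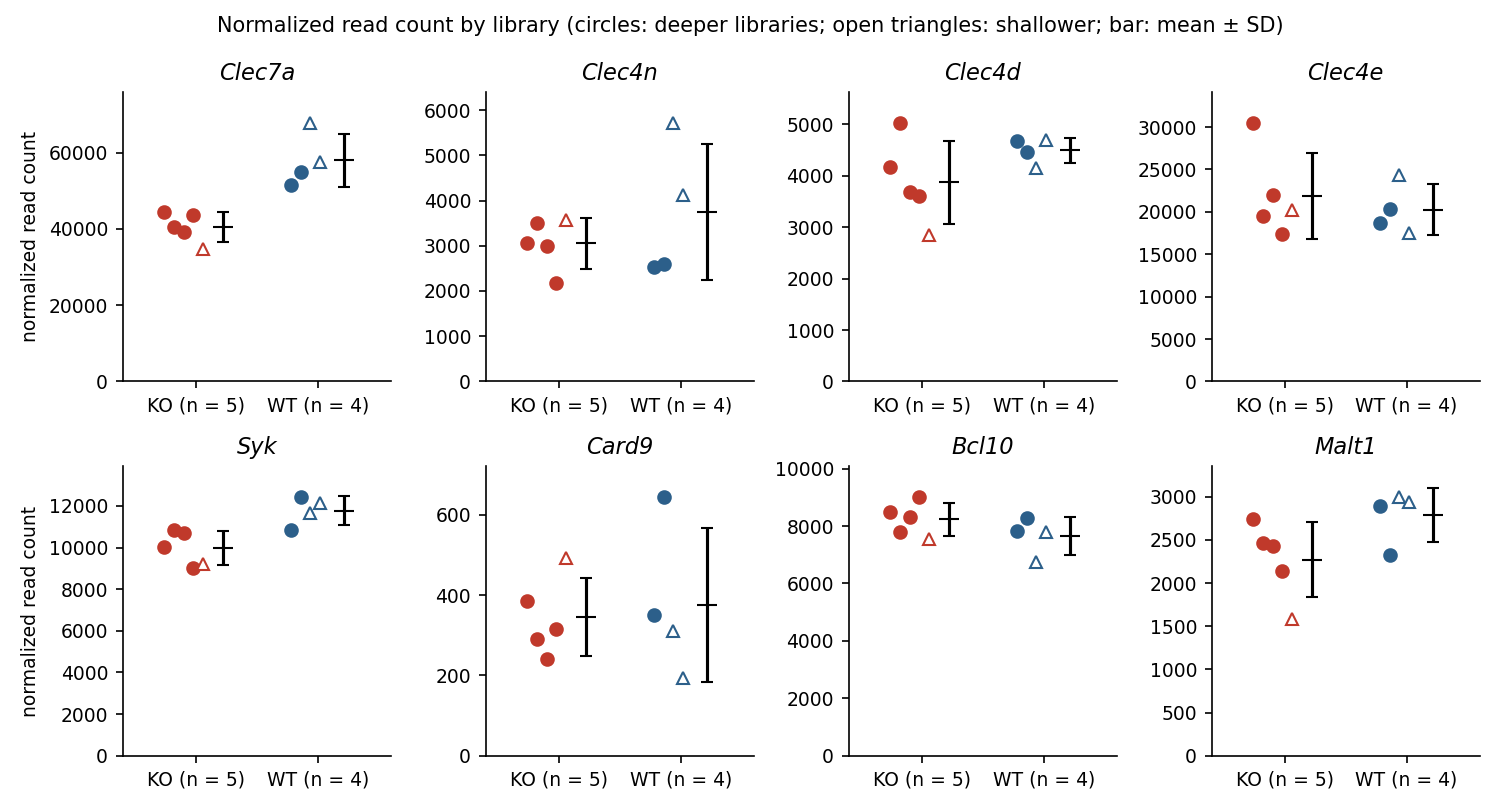
Normalized read count of the 8 genes in each library, KO (n = 5) left of WT (n = 4); filled circles are the 6 deeper libraries, open triangles the 3 shallower ones, and bars give the mean ± SD. In Clec7a alone among these genes every KO point (34742 to 44422) lies below every WT point (51483 to 67772), and in Clec4n the WT triangles (4121 and 5715) lie above the WT circles (2524 and 2603).

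Syk, the kinase that docks to the phosphorylated receptor tails, had the next smallest p after Clec7a, although the difference of Malt1 was larger in size. It had 10030.4, 10864, 10679, 9041 and 9224 normalized counts in KO replicates 1 to 5, against 10863, 12418, 11680 and 12139 in WT replicates 1 to 4. The groups touched at a single point, KO replicate 2 being level with WT replicate 1, and the other 4 KO libraries lay below every WT library. The mean was 9967 ± 826 in KO and 11775 ± 680 in WT. The log2 difference of -0.24 (95% interval -0.43 to -0.05) had an unadjusted p of 0.016 in limma but an adjusted p over all genes of 0.36. An unadjusted p under 0.05 was found for 9.14% of all genes and for 2 of these 8, Clec7a and Syk. Syk was below 0 in each of the 21 alternatives, between -0.28 and -0.20.

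Of the complex downstream of Syk, no gene passed. Card9, the adaptor that links Syk to NF-kB in myeloid cells, was the least certain of the 8. It had 385, 290, 242, 316 and 491 normalized counts in KO replicates 1 to 5, against 351, 644, 310 and 194 in WT replicates 1 to 4. The highest and the lowest value were both WT. The coefficient of variation was 28.2% in KO and 51.1% in WT, while counting error alone would give 8.39% in the library with the fewest Card9 reads, 142. The difference was -0.03 with a 95% interval of -0.93 to 0.87 (limma adjusted p = 0.99), and it was -0.65 in the deeper libraries and 1.0 in the shallower ones. Gm13562 is annotated on the opposite strand and overlaps Card9 (chromosome 2, 26352176 to 26360918, minus strand), and although the libraries kept strand by the dUTP method, per the labels' protocols, the sources used here do not give the strand setting of the counting, so Card9 reads may include reads of that gene.

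Bcl10, the filament-forming partner of Card9, was the steadiest of the complex. It had 8492, 7804, 8323, 9005 and 7564 normalized counts in KO replicates 1 to 5, against 7835, 8277, 6734 and 7785 in WT replicates 1 to 4. The groups overlapped over most of their range, and the difference was 0.11 (95% interval -0.10 to 0.31; limma adjusted p = 0.78). Bcl10 lies on chromosome 3 from 145922804 to 145934356.

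Malt1 encodes the paracaspase of the complex, a protease and scaffold that works with Bcl10. It had 2744, 2460.4, 2427, 2141 and 1585 normalized counts in KO replicates 1 to 5, against 2893, 2330.1, 2993 and 2941 in WT replicates 1 to 4. In WT 3 of the 4 libraries lay above every KO library, and WT replicate 2 lay within the KO range. The mean was 2271 ± 439 in KO and 2789 ± 309 in WT, a log2 difference of -0.31 (95% interval -0.67 to 0.04; limma adjusted p = 0.61). It was -0.09 in the deeper libraries and -0.90 in the shallower ones, where KO replicate 5 alone stands for KO. The ratio of Malt1 to Bcl10 within a library was 0.275 ± 0.0497 in KO and 0.368 ± 0.0669 in WT, with overlapping ranges.

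Over the 8 genes 1 fell, 0 rose and 7 did not pass. The differences of 6 lay below 0 and those of Clec4e and Bcl10 above it, with a median of -0.23, although the signs of Clec4n, Clec4e and Card9 turned without single libraries. This stands beside a median of 0.02 over all genes, of which 47.6% lay below 0. The abundance of 7 of these transcripts placed them in the upper part of the table, from percentile 76.1 for Malt1 to 98.7 for Clec7a, and Card9 stood at percentile 39.9.

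**Figure D4:**
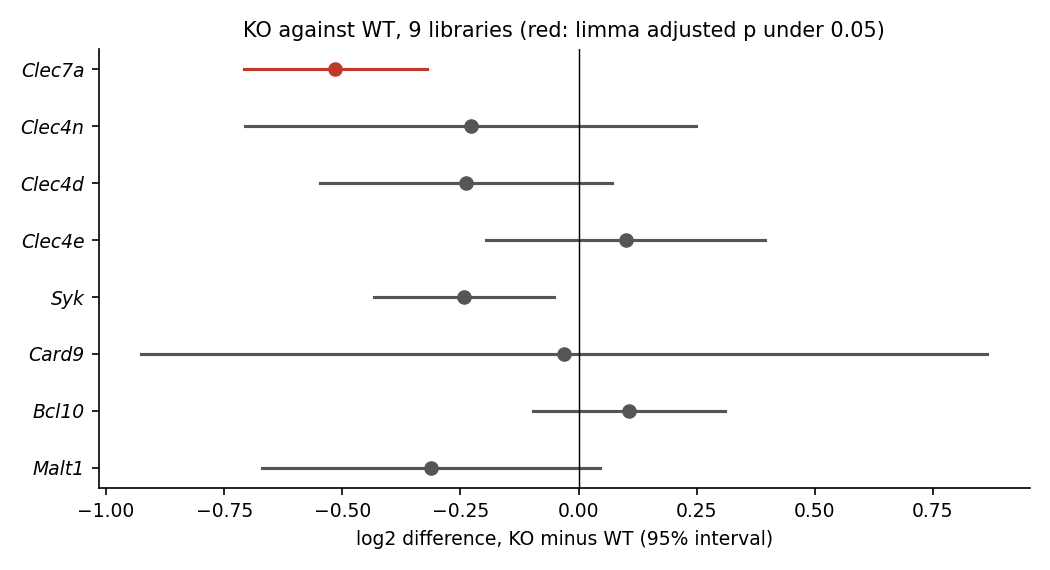
Log2 difference of each gene, KO minus WT, with its 95% interval from the limma fit of 9 libraries; red marks an adjusted p under 0.05. Clec7a at -0.52 is the gene past the threshold, Syk at -0.24 has an interval that ends at -0.05, and the interval of Card9 runs from -0.93 to 0.87.

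The genes whose level followed Clec7a most closely from library to library, after the mean of each group was subtracted, were Pycard, which encodes the inflammasome adaptor ASC, the transcript 9430016H08Rik, and Xrn2, a nuclear RNA exonuclease. Over the 9 libraries their Pearson correlations with Clec7a were 0.934, 0.930 and 0.925 and their Spearman correlations 0.933, 0.933 and 0.967. They are the highest of 7452 genes with a mean of at least 648.6 and so are given as a description. All values share the libraries and their depth. Pycard itself averaged 6946 ± 798 in KO and 8662 ± 1042 in WT, with ranges that did not overlap, and did not pass (limma adjusted p = 0.35). Among the other 7 genes of the pathway the Pearson correlation with Clec7a lay between -0.310 for Card9 and 0.617 for Malt1.

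The other lectin genes of the same clusters on the chromosome mostly lay below 0. Of 16 listed genes 13 were measured, 0 passed, 11 lay below 0 and the median difference was -0.24; 4 had an unadjusted p under 0.05, all lower in KO. Clec12a, an inhibitory receptor of myeloid cells, came nearest, with 36215 ± 3013 in KO and 47038 ± 3126 in WT (log2 difference -0.38, limma adjusted p = 0.053). Clec9a, a dendritic cell receptor for dead cells, had 50.1 ± 32.2 in KO and 411 ± 281 in WT (-3.49, adjusted p = 0.22). KO replicate 3 stood at the floor of 1 for Clec9a, so the size of that difference rests in part on the floor. Clec4b1 differed by -0.25 and Clec4a2, an inhibitory receptor, by -0.16 (adjusted p = 0.23 and 0.55). Genes of the Clec4a and Clec4b group are close copies of each other, and how shared reads were divided is not given in the sources used here, so their single values are uncertain.

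Adaptors and enzymes between receptor and Card9 gave 0 calls in 19 measured genes, with 16 below 0 and a median of -0.11. Fcer1g, the signalling chain that the dectin-2 family depends on, had 96590 ± 5158 in KO and 109260 ± 7335 in WT (a log2 difference of -0.18, limma adjusted p = 0.39). Tyrobp, the related chain DAP12, had 101250 ± 6052 in KO and 115250 ± 4273 in WT (-0.19, adjusted p = 0.30). Lcp2, the scaffold SLP-76, differed by -0.31 and the kinase Lyn by -0.24 (adjusted p = 0.22 and 0.37). In this list 5 genes had an unadjusted p under 0.05, of which 4 were lower in KO and 1, the Src-family kinase Fgr, higher. Fgr averaged 7013 ± 2206 over the KO libraries and 5147 ± 641 over the WT libraries, with KO replicate 1 at 10663, and it did not pass over all genes (limma adjusted p = 0.50).

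Of 13 brakes and other regulators of Syk and Card9, a list that also holds Trim62, which activates Card9, 0 passed the test, 6 lay below 0 and the median was 0.02. Ptpn6, the phosphatase SHP-1, had 10037 ± 625 in KO and 12894 ± 1843 in WT (a log2 difference of -0.35, limma adjusted p = 0.19). Tnfaip3, the ubiquitin-editing enzyme A20, differed by -0.15, the lipid phosphatase gene Inpp5d by -0.19 and the ubiquitin ligase Cblb by 0.74, none of them past the test (adjusted p = 0.53, 0.63 and 0.55).

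Steps after Malt1 and the other Card scaffolds also gave 0 calls, in 18 measured of 19 listed genes, with 8 below 0 and a median of 0.06. Ikbkb, a kinase of NF-kB activation, had 4609 ± 295 in KO and 3513 ± 348 in WT (a log2 difference of 0.39, limma adjusted p = 0.20). Traf6 and Traf2 differed by 0.44 and 0.31 (adjusted p = 0.63 and 0.60).

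Of 20 measured genes known to be induced by dectin ligands in myeloid cells, 1 rose, 0 fell and 19 did not pass, with a median of 0.03. The gene that rose was Cxcl1, a neutrophil chemoattractant, which reached 171780 ± 22472 in the KO libraries, against 109610 ± 13908 in the WT libraries (log2 difference 0.65, limma adjusted p = 0.0096). Ptgs2, the inducible cyclooxygenase, had 14232 ± 2404 in KO and 20388 ± 6356 in WT (-0.49, adjusted p = 0.29). Nr4a1, an early-response nuclear receptor, differed by 0.30 and Il12b, a subunit of interleukins that direct T cells, by -0.61 (adjusted p = 0.43 and 0.54). The call for Cxcl1 was kept without WT replicate 1 (adjusted p = 0.039) and lost without each of the other 8 libraries, where the adjusted p was 0.10, 0.10, 0.096, 0.059 and 0.13 for KO replicates 1 to 5 and 0.15, 0.090 and 0.13 for WT replicates 2 to 4. In the 6 deeper libraries alone it was 0.46.

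Of 20 other receptors and partners for fungal glucans and mannans, 1 rose, 0 fell and 19 did not pass, with a median of -0.05. Cd209a, a C-type lectin of dendritic cells related to DC-SIGN, rose to 7634 ± 1014 in KO, against 4154 ± 1182 in WT (a log2 difference of 0.91, limma adjusted p = 0.022). Mgl2, a galactose-type lectin, had 18983 ± 1324 in KO and 13847 ± 2705 in WT (0.47, adjusted p = 0.11), and Cd209d differed by 1.36 and Tlr4 by -0.34 (adjusted p = 0.30 and 0.42). The call for Cd209a was kept without WT replicate 1 (adjusted p = 0.023) and lost without each of the other 8 libraries, where the adjusted p was 0.18, 0.14, 0.20, 0.086 and 0.23 for KO replicates 1 to 5 and 0.20, 0.13 and 0.20 for WT replicates 2 to 4. It was also lost in the 6 deeper libraries alone (0.63), with depth class as a term (0.062) and with limma-voom (0.053).

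The 7 genes of the phagocytic oxidase, which produces the oxidative burst after uptake, gave 0 calls and a median of -0.03; Cyba, with -0.17, had the smallest p (adjusted p = 0.515), followed by Cybb with -0.15, Rac1 with -0.11 and Ncf1 with 0.05 (adjusted p = 0.63, 0.74 and 0.90).

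**Figure D5:**
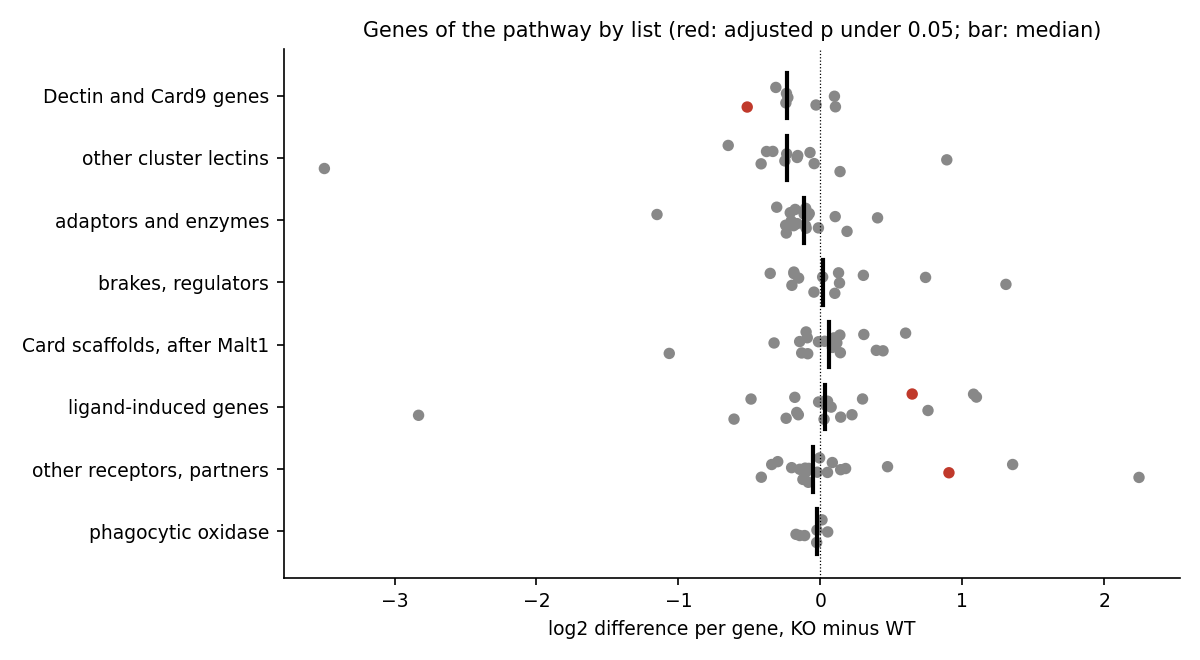
Log2 difference, KO minus WT, of every measured gene in the 8 lists, 1 point per gene, with a black bar at the median of each list; red marks a limma adjusted p under 0.05. The red points are Clec7a at -0.52, Cxcl1 at 0.65 and Cd209a at 0.91, and the medians lie between -0.24 and 0.06.

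Over the lists together 110 genes other than the 8 were measured, of which 2 rose and 0 fell, beside 0.309% of all genes called. Of them 22 (20%) had an unadjusted p under 0.05 in limma, in both directions, beside 9.14% of all genes, and 66 lay below 0, beside 47.6%. The lists were chosen with earlier results of these data known, so these shares are a description, and no enrichment of the pathway was tested.

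Markers of cells that the sort could also hold in part moved with the groups. The 8 peritoneal macrophage markers summed to 32737 to 36616 in KO and 24268 to 30798 in WT (2 rose), and the 10 measured of 12 markers of mast cells, eosinophils and basophils to 1852 to 3794 in KO and 6243 to 11096 in WT (4 fell). The 9 endothelial markers summed to 5201 to 9347 in KO and 3256 to 5460.0 in WT (1 rose). Of these 9, 8 lay above 0 (median 1.25), and 5 had an unadjusted p under 0.05 in limma, 4 of them higher in KO. The 8 mesothelial markers summed to 7481 to 25210.4 in KO and 3035 to 11452 in WT (0 past the test). All 8 lay above 0 (median 1.57), and 6 had an unadjusted p under 0.05 in limma. The 7 B cell markers summed to 2131 to 2976 in KO and 2081 to 4026 in WT, the 9 T and NK cell markers to 481 to 1241 in KO and 745 to 1402 in WT, and the 8 adipocyte and stromal markers to 231321 to 358331 in KO and 158572 to 271171 in WT, with 0 past the test in each. In limma an unadjusted p under 0.05 was found for 0 B cell, 0 T and NK cell and 3 adipocyte and stromal markers. Of those 3, 2 were higher in KO. No marker stood at the floor in all 9 libraries. Fcer1a, 1 of the 4 that fell, stood at the floor of 1 in all 5 KO libraries. The size of its difference (-5.54) rests in part on the floor. At the floor in some library were 5 B cell, 4 T and NK cell, 4 mast cell, eosinophil and basophil and 2 adipocyte and stromal markers. The part of all these markers in the levels of Clec7a and of the other genes described was not tested.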

How the data were processed

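The deposited table gives a normalized signal for every gene: reads divided by a factor that is common to a library, and never under 1. No label says this. It was read from the values, since in each library 100% of those above the floor and under 1000 steps were whole multiples of 1 step, within 0.1 of a step. Per the submitters' processing notes, the tools were HISAT, CASAVA 1.8.2, DESeq2 and Partek, with mm10 as the build and no roles stated. The sources used here do not give the annotation, the strand setting of the counting or the gene filter. The 9 columns matched the libraries by name.

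The 8 genes, the lists around them and the tests were chosen with earlier results of these data known. limma 3.58.1 in R 4.3.3 was fitted with a mean-variance trend to log2 of the value plus 1 for 14905 genes, with a genotype term alone and adjusted by Benjamini-Hochberg. From each pathway list the 4 genes with the smallest p are named, apart from 1 that is not reported here; Fgr, Trim62, Rn45s and the macrophage and dendritic cell markers given by name were named after their values were seen. Exon lengths and positions come from GENCODE M21 (GRCm38, which mm10 names). On simulated data with the WT means of all 14905 genes the fit recovered 10%, 40%, 94% and 100% of genes changed 1.5, 2, 4 and 8 fold. The spread in that simulation was set by hand from the mean, not taken from these libraries, and genes of low mean were not changed. These shares therefore do not measure how well the fit would find a change in the 8 genes. Alternatives were pseudocounts of 0.1 and 10, filters on low values, scaling by quantiles or by median ratio, robust moderation, array weights, a replicate block, depth class, the 6 deeper libraries, limma-voom on reads from the steps, and each library left out. The planned edgeR test and TMM factors were not run, because the floor hides reads of 0 and, where the step is under 1, of 1. Figures were drawn with matplotlib 3.10.9 under Python 3.11.15.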

Additional observations from a re-analysis of the deposited data

Results flagged for a closer look

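Malt1 in WT replicate 2 stood at 2330.1 normalized counts, apart from the other 3 WT libraries, whose nearest value was 2893. The gap was 0.849 of the range of the WT group, above the critical value of 0.829 for 4 samples. Of 16 groups checked (8 genes in KO and in WT) this was the 1 flagged, and chance flags about 1 in 20. Without WT replicate 2 the log2 difference of Malt1 was -0.40, against -0.31 with it, and it did not pass in either fit (limma adjusted p = 0.55 and 0.61).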

How the results depend on the processing

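Clec7a kept its direction in all 21 alternatives (limma adjusted p between 0.0099 and 0.48) and its call in 9 of them, none of which left out a single library. The number of called genes among the 8 was 1 as reported, and 0 with the replicate block, with depth class as a term and in the 6 deeper libraries alone; it was 0 to 0 without single libraries. Over all genes 46 passed (27 higher, 19 lower), against 0 with the replicate block (1104 at an unadjusted p under 0.05), 0 in the 6 deeper libraries (1039 unadjusted) and 5 to 38 without single libraries; limma-voom gave 32, of which 12 were higher and 20 lower. Of the pathway lists 2 genes passed, against 0 with the replicate block (18 unadjusted), 0 in the 6 deeper libraries (11 unadjusted), 1 with depth class as a term, 1 with limma-voom and 0 to 2 without single libraries. The cause of these changes was not tested, and some of these fits also hold fewer libraries.

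The replicate block drops KO replicate 5; Clec7a was then -0.46 (limma adjusted p = 0.48). Same-numbered KO and WT libraries did not deviate together over all genes (correlations of -0.021 to 0.017 across genes). The labels state no pairing, and these correlations cannot show whether such libraries shared a litter, a handling step or an effect on fewer genes. Directions that changed were those of Clec4n (0.17 in the 6 deeper libraries, 0.0033 without WT replicate 3; range without single libraries -0.39 to 0.0033), Clec4e (-0.0264 without KO replicate 1, up to 0.19 without others) and Card9 (0.02, 0.09 and 0.27 without KO replicates 2 and 3 and WT replicate 2, range -0.30 to 0.27). The planned edgeR test and TMM scaling were not run. Counting error was highest for Card9 (8.39% at 142 reads) and at most 2.83% for the other 7 genes.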

Other observations

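Within a library the balance between the 2 most abundant receptors differed by group. The ratio of Clec7a to Clec4e, in normalized counts, was 1.46, 2.08, 1.78, 2.51 and 1.72 in KO replicates 1 to 5, against 2.76, 2.70, 2.78 and 3.30 in WT replicates 1 to 4. The ranges did not overlap. This ratio is free of the factor per library, it was picked with the values of Clec7a known, and it was not tested. The ratio of Clec7a to Syk averaged 4.08 ± 0.518 over the KO libraries and 4.93 ± 0.601 over the WT libraries (SD, n = 5 and 4). That of Clec4e to Clec4d averaged 5.81 ± 1.47 over the KO libraries and 4.54 ± 0.951 over the WT libraries. Both overlapped between the groups.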
